A study of Arabidopsis thaliana with 9 samples.

Results

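MIR5026, MIR850 and MIR863 are 3 Arabidopsis thaliana miRNA genes that lie side by side on chromosome 4, and their mature products are ath-miR5026, ath-miR850, ath-miR863-5p and ath-miR863-3p, written below mostly without the species prefix. These 4 entries, taken by family number, are 4 of the 427 mature miRNA entries counted in the study, and all 4 had counts in every library. The group had been proposed from earlier results of the same libraries, in which these entries were low in chr2, so its levels in chr2 are described here without a test. Small RNA came from leaves of 3-week-old plants of 3 genotypes, wild type (WT), se-2 and chr2, with 3 libraries each. SERRATE (SE) is mutated in se-2 and CHR2 in chr2, and the study's title frames the work as the effect of CHR2, through SE, on miRNA production. Neither the ecotype, the molecular lesions nor the number of plants per library was given in the sources used here, nor whether the libraries came from separate plants, so the spread between libraries may be technical. In leaf extracts, fewer cells making a miRNA and less miRNA per cell cannot be told apart. Counts of mature miRNAs hold no defining leaf marker and no SE or CHR2 transcript, so neither the tissue nor the genotypes were checked from the data.

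Plant miRNAs are cut from hairpins in longer primary transcripts, mostly by the nuclease DCL1, which works with SE and with the double-stranded RNA binding protein HYL1. The cut leaves a duplex with an arm from each side of the stem. Usually the arm called the guide is kept by an Argonaute protein and the other is lost. CHR2, also named BRM, is the ATPase of a SWI/SNF complex that moves nucleosomes. miR863-3p has been described as a miRNA that rises on bacterial infection and represses both a pair of genes related to receptor-like kinases and SE itself. No function is stated here for miR5026 or miR850.

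The mature sequences are shown because they identify what was counted. They are from the RefSeq annotation of TAIR10.1, written 5′ to 3′ with the seed, bases 2 to 8, in capitals.
miR5026: aCUCAUAAgaucgugacacgu
miR850: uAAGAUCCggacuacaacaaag
miR863-5p: uUAUGUCUuguugaucucaau
miR863-3p: uUGAGAGCaacaagacauaau

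The 4 seeds differed from each other, and none was shared with any other of the 427 entries. miR850 has 22 bases and the other members 21, the length of 75.9% of all entries. miR5026 begins with A, as do 24.1% of the entries, while the other 3 begin with U, as do 56.4%. The sequences of miR850, miR863-5p and miR863-3p each occur once in the genome. That of miR5026 occurs at 2 places, once on chromosome 4 and once on chromosome 5 (minus strand, 14318730 to 14318750), outside annotated genes. The exact match to the chromosome 5 place runs over 36 bases, and 49.7% of the 193 bases of the MIR5026 precursor are identical there without gaps. Reads of miR5026 therefore cannot be assigned to the chromosome 4 gene by sequence alone.

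The hairpins show how the mature arms sit in their precursors, and are printed with the mature arms in capitals. For MIR863 the stretch from the first base of the 5p arm to the last base of the 3p arm is given, chr4:7846644-7846855, and for the others the whole annotated precursor.
MIR5026: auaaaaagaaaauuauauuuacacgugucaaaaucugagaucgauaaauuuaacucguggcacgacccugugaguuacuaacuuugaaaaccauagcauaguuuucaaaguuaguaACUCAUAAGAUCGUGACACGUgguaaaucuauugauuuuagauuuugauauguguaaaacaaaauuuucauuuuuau
MIR850: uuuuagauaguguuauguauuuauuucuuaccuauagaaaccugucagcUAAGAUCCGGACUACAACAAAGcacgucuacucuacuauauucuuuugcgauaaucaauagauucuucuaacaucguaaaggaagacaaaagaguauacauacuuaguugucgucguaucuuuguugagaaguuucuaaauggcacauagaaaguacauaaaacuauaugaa
MIR863: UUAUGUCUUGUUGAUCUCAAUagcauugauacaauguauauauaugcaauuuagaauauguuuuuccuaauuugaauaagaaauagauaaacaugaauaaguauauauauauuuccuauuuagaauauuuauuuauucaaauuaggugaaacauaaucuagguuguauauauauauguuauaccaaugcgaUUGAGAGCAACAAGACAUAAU

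Folded with RNAfold, the annotated precursors had predicted free energies of -91.3 kcal/mol for MIR5026 (193 bases), -64.5 for MIR850 (221 bases) and -139.5 for MIR863 (303 bases). Per 100 bases this is -47.3, -29.2 and -46.0 kcal/mol, so MIR850 had the weakest predicted fold. miR5026 and miR863-3p lie in the 3′ arm, and miR850 and miR863-5p in the 5′ arm. In the predicted folds, 17 of 21 bases of miR5026, 17 of 22 of miR850, 20 of 21 of miR863-5p and 19 of 21 of miR863-3p were paired. Neither miR5026 nor miR850 has a partner arm among the counted entries.

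On TAIR10.1 all 3 genes are on the plus strand of chromosome 4. MIR5026 (AT4G06075) lies at 7844496 to 7844688, MIR850 (AT4G13493) at 7845707 to 7845927 and MIR863 (AT4G13494) at 7846597 to 7846899, a span of 2404 bases. The gaps between them are 1018 and 669 bases. The non-coding RNA gene AT4G13495, at 7842967 to 7846774 on the same strand, overlaps all 3. MIR5026 and MIR850 lie wholly within its last intron, of 2621 bases (7843619 to 7846239). MIR863 starts within its last exon, which contains miR863-5p (7846644 to 7846664), and runs past its annotated end, so that miR863-3p (7846835 to 7846855) lies beyond it. The next annotated gene is AT4G06080, a long non-coding RNA gene on the minus strand, 744 bases away. Whether the hairpins are cut from a shared transcript was not measured in these files.

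**Figure D1:**
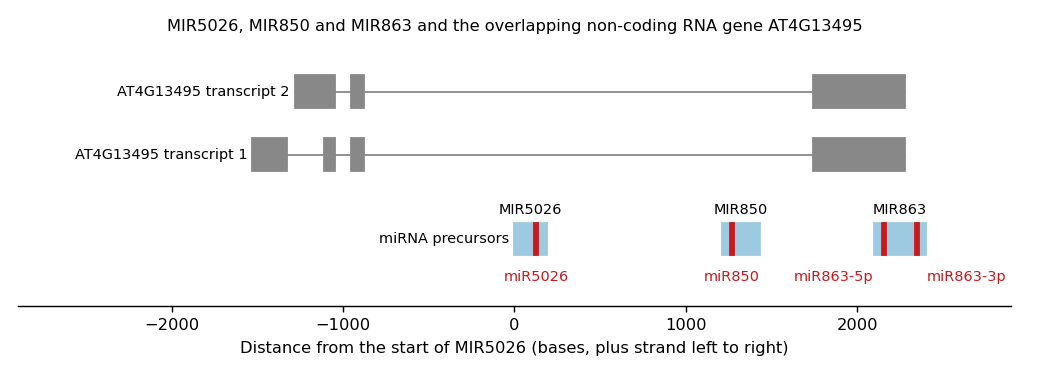
Map of the locus, to scale, with the distance in bases from the start of MIR5026 on the horizontal axis. Grey boxes are exons of the 2 annotated AT4G13495 transcripts and lines their introns, pale blue boxes are miRNA precursors and red boxes mature miRNAs; MIR5026 and MIR850 fall in the last intron, and miR863-3p falls past the last exon.

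The best match of miR863-3p to the SE transcript (AT2G27100) is shown because SE is the gene mutated in se-2. It lies in the 3′ UTR, in exon 12, at 11576469 to 11576489 on the plus strand of chromosome 2 of TAIR10.1, with bases that pair with the miRNA in capitals.
SE site: AUUAUGUCUUGUUcCUCcCAA
Of its 21 bases, 19 pair and 2 mismatch, and both mismatches face bases of the miR863-3p seed. In an ungapped search of the mRNAs of 31460 annotated genes, a mismatch counted 1 and a G:U pair 0.5 at every position alike. No other gene had a window that scored as well, but the score took no account of where mismatches fall. Complementarity is a description of sequence, and SE mRNA or protein was not measured here.

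The summed counts in miRNA entries ranged from 1280294 to 1588242 in WT, from 130482 to 195415 in se-2 and from 637283 to 908635 in chr2. These sums are not the depth of the libraries, because other small RNAs are not in them. Reads of a sequence shared by several entries also appear to be in them once for each entry. Shares of all miRNA counts given below depend on this. Levels are given below as CPM, counts brought to a common library size by TMM scaling, which assumes that most miRNAs do not change. A second scaling, called reference scaling, used the summed counts of 130 entries with family numbers of 5000 and above, miR5026 left out, or of early families later questioned as miRNAs, and assumes that these were constant. Under it the median log2 change against WT over all 270 tested entries went from 0.11 to -2.36 in se-2 and from -0.16 to -0.76 in chr2, so that changes below are to be read relative to the scaling named.

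The raw counts of the 4 members together were 1681 ± 66.4 per WT library (SD, n = 3), 880.3 ± 60.2 per se-2 library (SD, n = 3) and 266.3 ± 47.6 per chr2 library (SD, n = 3). The se-2 sum was thus 0.524 of WT, while all miRNA counts were at 0.117 of WT and reference counts at 0.692. In chr2 the member sum was 0.158 of WT, while all miRNA counts were at 0.563 and reference counts at 0.856. A single entry, miR8175, weighs on the reference, and without it the reference counts were at 0.542 of WT in se-2 and at 0.573 in chr2. In chr2 the members were therefore below WT by more than any of these 3 totals, whereas in se-2 their sum was further below WT than both reference totals and less far below it than all miRNA counts. As a share of all miRNA counts the members made up 0.119% ± 0.00917 (SD, n = 3) in the WT libraries, 0.549% ± 0.129 (SD, n = 3) in those of se-2 and 0.0337% ± 0.00551 (SD, n = 3) in those of chr2.

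ath-miR5026 was the most abundant member in each genotype. Its libraries had 819, 915.2 and 813.4 CPM in WT, 4693, 3213 and 3169 CPM in se-2, and 194.8, 184 and 315.8 CPM in chr2. Every se-2 library was above and every chr2 library below all WT libraries, and se-2 replicate 1, the library with the fewest counts, was the highest. For each member, the share of all tested entries without overlap is given below with each comparison. Among the 270 tested entries it ranked 60 in WT, 32 in se-2, but 91 in chr2. These levels rest on 1070 to 1135 counts per library in WT, 553 to 644 in se-2 and 142 to 188 in chr2.

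ath-miR863-3p, the more abundant arm of its hairpin, was second. It had 267.3, 264.3 and 258 CPM in WT, 932.8, 831 and 751.3 CPM in se-2, and 69.97, 72.41 and 69.98 CPM in chr2. Libraries of a genotype lay close together and no library of a genotype overlapped those of another. Its partner ath-miR863-5p had 111.1, 110.3 and 111.1 CPM in WT, 255.1, 255.7 and 235.1 CPM in se-2, and 21.95, 41.1 and 35.89 CPM in chr2. The chr2 libraries were the most uneven, with 16, 42 and 20 counts.

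ath-miR850 was the rarest member in WT and chr2 but not in se-2, where it exceeded miR863-5p in every library. It had 86.33, 82.97 and 55.9 CPM in WT, 757.9, 412.6 and 541.7 CPM in se-2, and 34.3, 16.63 and 16.15 CPM in chr2. The raw counts of miR850 were about the same in WT (115, 97 and 78) and se-2 (104, 71 and 106), although all miRNA counts together were 8.58-fold lower in se-2. Its chr2 counts were 25, 17 and 9, and the lowest of them has an exact Poisson 95% interval of 4.12 to 17.1 counts, so this level is the least precise of those given. Such intervals cover counting error alone. The order of mean levels was miR5026, miR863-3p, miR863-5p, miR850 in WT and in chr2, and miR5026, miR863-3p, miR850, miR863-5p in se-2. In chr2 the libraries of miR863-5p and miR850 overlapped, so these neighbours were not separated there.

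**Figure D2:**
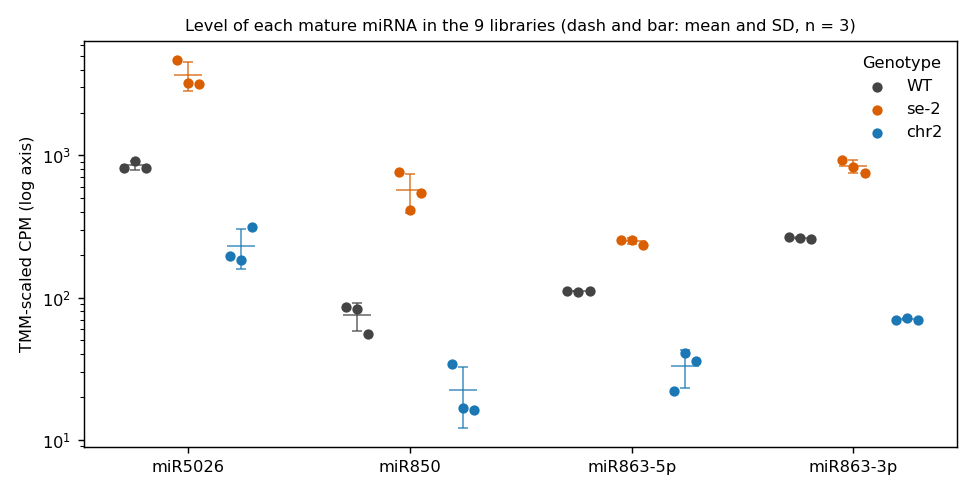
TMM-scaled CPM of the 4 members (log axis) in each library, grouped by miRNA and coloured by genotype, with the mean and SD of 3 libraries as dash and bar. For each member the se-2 points lie above and the chr2 points below the WT points, without overlap. Of all 270 tested entries, 42.2% lay above WT without overlap in se-2 and 32.2% below it in chr2. The share that did both was not counted, and the group had been proposed for low levels in chr2.

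In se-2, the line with SE mutated, against WT, all 4 members rose with TMM scaling, but only miR850 kept that direction under both forms of reference scaling. By edgeR's quasi-likelihood test over all entries, miR850 was 7.55-fold higher (log2 2.92, SE 0.27, adjusted p 1.7e-10) and miR5026 4.34-fold higher (log2 2.12, SE 0.23, adjusted p 3.2e-09). miR863-3p was 3.18-fold higher (log2 1.67, SE 0.20, adjusted p 1.4e-08) and miR863-5p 2.24-fold higher (log2 1.16, SE 0.24, adjusted p 8.6e-05). Increases were common in this comparison. Of the 270 tested entries 42.2% were called higher (114) and 30.4% lower (82), which became 96 and 118 with DESeq2 size factors and 13 and 195 with reference scaling. For 42.2% all se-2 libraries were above all WT libraries, as for the members, so 4 of 4 is not read as particular to the locus. The members stood at places 22, 60, 78 and 96 from the top of the 270, in the order miR850, miR5026, miR863-3p, miR863-5p. The WT libraries here also served the comparison from which the group had been proposed.

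With reference scaling miR850 was at a log2 of 0.44 (SE 0.26, edgeR adjusted p 0.14), miR5026 at -0.38 (SE 0.22, adjusted p 0.12), miR863-3p at -0.81 (SE 0.22, adjusted p 0.0026) and miR863-5p at -1.31 (SE 0.27, adjusted p 0.00023). Without miR8175 in the reference, miR850 was again called higher (log2 0.90, SE 0.27, edgeR adjusted p 0.0022) and miR863-5p lower (log2 -0.90, SE 0.27, adjusted p 0.0021), while miR5026 (0.08, adjusted p 0.78) and miR863-3p (-0.39, adjusted p 0.16) were not called. Relative to other miRNAs the members were thus high in se-2, and relative to the reference entries they were spread around WT. The order among the members was the same under each scaling.

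In chr2, the line with CHR2 mutated, against WT, the 4 members had nearly equal values. The log2 change was -1.89 (SE 0.23) for miR5026, -1.89 (SE 0.21) for miR863-3p, -1.74 (SE 0.32) for miR850 and -1.73 (SE 0.25) for miR863-5p. These are levels 3.70, 3.71, 3.35 and 3.31 times below WT. They took places 5, 4, 7 and 8 from the bottom of the 270 tested entries, a description only, since this contrast proposed the group. In each member the chr2 and WT libraries did not overlap, as in 32.2% of all tested entries in that direction, and edgeR called 19.6% of tested entries lower (53) and 10.4% higher (28). These counts became 37 lower and 46 higher with DESeq2 size factors and 152 lower and 8 higher with reference scaling. With reference scaling the log2 changes were -2.51, -2.49, -2.34 and -2.31 in the same order, and without miR8175 in the reference they were -1.86, -1.83, -1.68 and -1.66. The direction thus held in all 4 members under each scaling tried, unlike that in se-2.

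**Figure D3:**
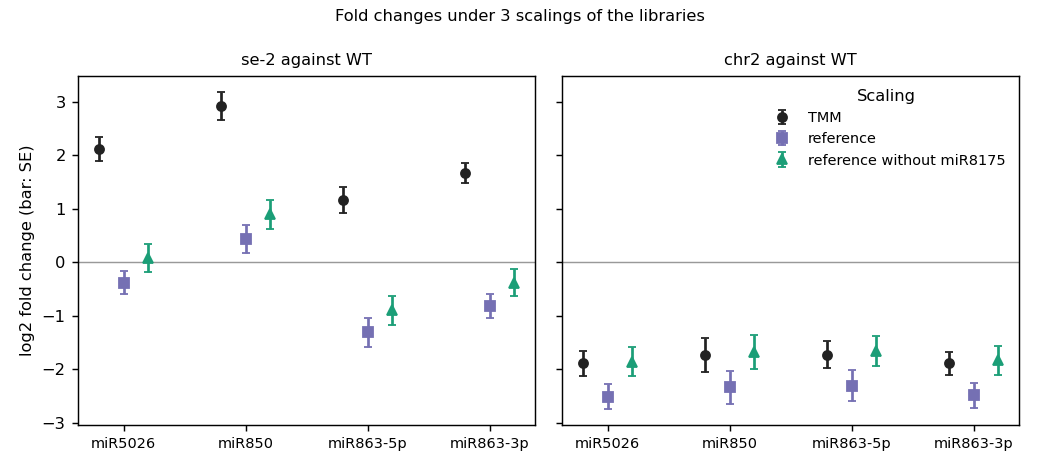
The log2 fold change of each member against WT, with its SE as a bar, in se-2 (left) and chr2 (right) under TMM, reference scaling and reference scaling without miR8175. In se-2 the points move from above to around 0, with miR850 always highest and miR863-5p always lowest; in chr2 all points lie between -1.66 and -2.51.

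Set directly against each other, chr2 was below se-2 in all 4 members, by an amount that depended on the scaling. With TMM the log2 difference was -4.66 (SE 0.32) for miR850, -4.01 (SE 0.25) for miR5026, -3.56 (SE 0.22) for miR863-3p and -2.89 (SE 0.28) for miR863-5p, given as a description because the chr2 libraries helped to choose the group. The libraries did not overlap for any member, as in 45.9% of all tested entries in that direction, and 47.4% of tested entries (128) were called lower in chr2 than in se-2, against 89 called higher. With reference scaling the differences were -2.78, -2.13, -1.68 and -1.01 in the same order of members, and over all entries 157 were higher and 35 lower. Without miR8175 in the reference they were -2.57, -1.94, -1.45 and -0.76, and again most calls over all entries were higher, with 28 lower. Raw counts of every member were also lower in each chr2 library than in each se-2 library, except that the 42 counts of miR863-5p in chr2 replicate 2 exceeded the 35 in se-2 replicate 1, and this although all miRNA counts together were higher in chr2.

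**Figure D4:**
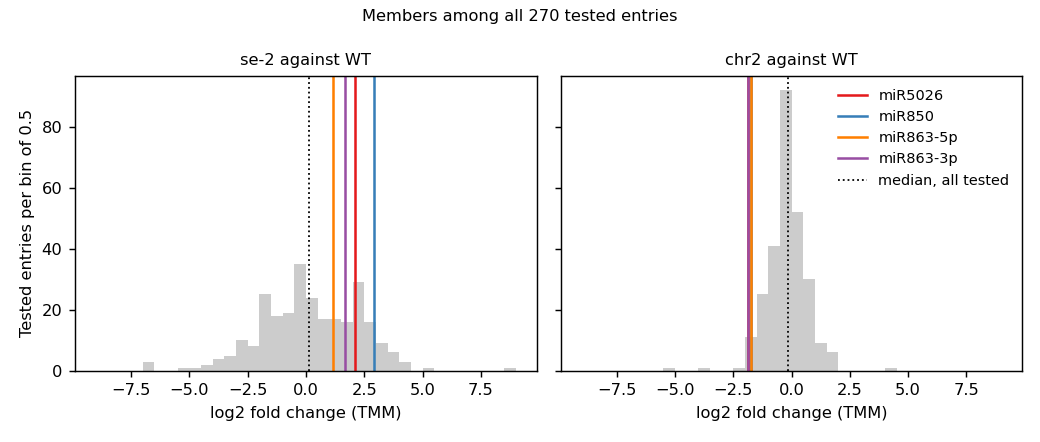
Histograms of the log2 fold change (TMM) over the 270 tested entries in bins of 0.5, for se-2 (left) and chr2 (right) against WT, with each member as a coloured line and the median of all tested entries dotted. In se-2 the members are spread from 1.16 to 2.92 within a broad distribution, and in chr2 they lie together from -1.89 to -1.73 near the low edge of a narrow one.

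Ratios between members within a library do not depend on the scaling. miR850 had 0.228, 0.221 and 0.151 counts per count of miR863 (both arms summed) in WT, 0.638, 0.38 and 0.549 in se-2, and 0.373, 0.147 and 0.153 in chr2. All se-2 libraries were above all WT libraries, by a log2 of 1.37 (2.59-fold, means -0.97 and -2.34). This difference had an exact two-sided permutation p of 0.1, the smallest that 3 against 3 libraries allow, and 0.18 after Benjamini-Hochberg adjustment over 9 ratio tests (3 ratios in 3 contrasts), so it did not pass. The se-2 libraries were also above all chr2 libraries, 2.46-fold in the mean, a description since the chr2 libraries helped to choose the group. The highest chr2 library, replicate 1, came close to the lowest of se-2, at 0.373 against 0.38.

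miR5026 had 2.16, 2.44 and 2.2 counts per count of miR863 in WT, 3.95, 2.96 and 3.21 in se-2, and 2.12, 1.62 and 2.98 in chr2. The se-2 libraries lay above WT without overlap, by a log2 of 0.56 (1.47-fold, exact permutation p = 0.1, adjusted 0.18), whereas chr2 replicate 3 reached into the se-2 range (chr2 against se-2 log2 -0.63). In each se-2 library, then, miR850 and miR5026 were higher relative to miR863 than in any WT library, with the larger difference for miR850, and the miR5026 reads may include those of its second exact site on chromosome 5. How many other pairs of entries differ in this way was not counted, so the ratios are not read as particular to the locus.

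The share of the 5p arm of MIR863 was lower in each se-2 library than in any WT library. It made up 29.4% (Wilson 95% interval 25.6 to 33.5), 29.5% (25.4 to 33.9) and 30.1% (26.3 to 34.2) of miR863 counts in the WT libraries. In se-2 it made up 21.5% (15.9 to 28.4), 23.5% (18.0 to 30.1) and 23.8% (18.4 to 30.3). In chr2 it made up 23.9% (15.3 to 35.3), 36.2% (28.0 to 45.3) and 33.9% (23.1 to 46.6). The se-2 shares lay below those of WT without overlap, although the counting intervals overlap, and the chr2 libraries lay on both sides of WT.

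On the log2 scale the mean ratio of miR863-5p to miR863-3p over the 3 libraries of a genotype, with its SD, was -1.24 ± 0.03 for WT, -1.74 ± 0.10 for se-2 and -1.13 ± 0.45 for chr2. The se-2 ratio differed from WT by -0.49 (exact permutation p = 0.1, adjusted 0.18) and the chr2 ratio lay 0.60 above that of se-2. Among the 57 hairpins with both arms tested, the rarer arm of WT was lower relative to its partner in se-2 in 30 and higher in 27, with a median log2 shift of -0.02, and MIR863 was at place 24 from the lowest.

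Between chr2 and WT the 3 ratios differed by less than the spread of the chr2 libraries. The log2 differences were 0.11 for miR863-5p to miR863-3p, 0.08 for miR850 to miR863 and -0.07 for miR5026 to miR863, against SDs of 0.45, 0.74 and 0.44 in chr2. The group had been proposed for entries with similar changes in chr2, so near-equal ratios there are a description. They rest on 9 to 74 counts per chr2 library for miR850 and the miR863 arms, and how much of the spread between the chr2 libraries is counting error was not tested.

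**Figure D5:**
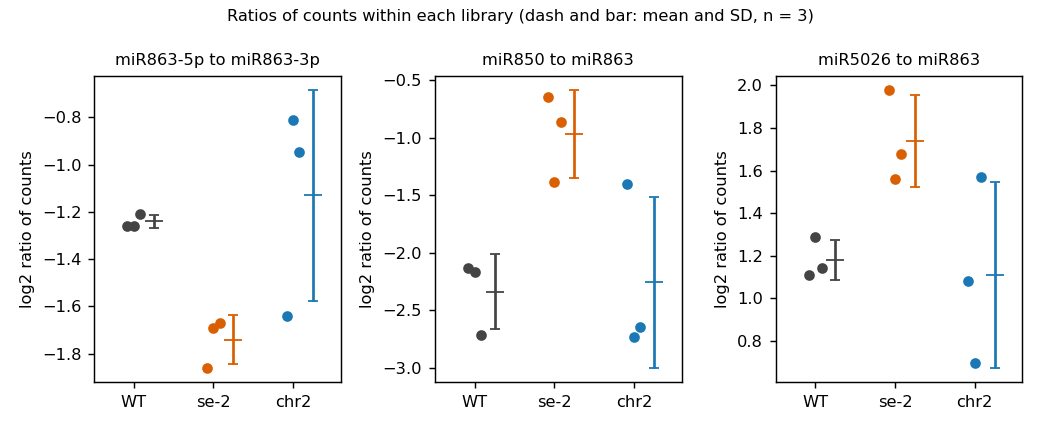
The log2 ratio of counts within each library for the 2 miR863 arms (left), miR850 to miR863 (middle) and miR5026 to miR863 (right), one point per library, with mean and SD of 3 libraries. The se-2 points stand apart from WT in each panel, and the chr2 points scatter around the WT mean.

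Outside the locus, the entries with the most similar profile were found by the root mean square difference between log2(CPM + 1) profiles over the 9 libraries, each centred on its own mean. Against the mean profile of the members this was 0.15 for miR863-3p, 0.21 for miR5026, 0.46 for miR863-5p and 0.54 for miR850, and its median over all 209 distinct sequences was 1.57. Each member is itself part of that mean profile, which lowers its own value. The profile also includes the chr2 libraries, which helped to choose the group, so the values of the members are a description. The nearest other entries were miR5637 (0.43), miR822-3p (0.44), miR846-3p (0.51), miR8177 (0.53) and miR862-5p (0.57). The first 4 of these lay no further from the mean profile than miR850 did. Their genes lie on chromosomes 2, 5, 1 and 5, in that order. Among them miR822-3p, from a hairpin cut by DCL4 rather than DCL1, had 69.0 ± 6.70 CPM in WT, against 173 ± 40.2 CPM in se-2 and 24.3 ± 5.39 CPM in chr2, as mean ± SD of 3 libraries. miR846-3p, which shares a spliced locus with miR842, had 112.3 ± 14.5, 706.9 ± 195.7 and 57.8 ± 4.98 CPM in the same order. miR842 itself was less similar (1.51) and was not called in either mutant (TMM log2 -0.377 in se-2 and -0.595 in chr2). By their family numbers miR5637 and miR8177 belong to the entries that reference scaling takes as constant. With TMM miR5637 was at a log2 of 2.34 in se-2 and -0.96 in chr2, and miR8177 at 2.36 and -0.79.

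Other lists of entries, chosen by name or position with the members left out, give the setting, and members of a list that share a sequence are not independent. Of 54 tested entries of families in the same number range as miR850 and miR863, mostly young miRNAs that few other plants share, 24 were called higher and 13 lower in se-2 (median log2 0.54), and 2 higher and 13 lower in chr2 (median -0.47). The median over all tested entries was 0.11 and -0.16. These values and those of the lists below are with TMM. By mean level over the 9 libraries the most abundant entries of this list were miR822-5p, miR858a and miR824-3p. miR822-5p was called higher in se-2 (log2 0.69, edgeR adjusted p 0.0019) and lower in chr2 (log2 -1.77, adjusted p 4.2e-08), the same directions as the members. miR858a was at a log2 of -0.13 in both mutants and was not called (edgeR adjusted p 0.55 and 0.67). miR824-3p was called lower in se-2 (log2 -1.74, edgeR adjusted p 8.7e-08) and was not called in chr2 (-0.17, adjusted p 0.58). Of 33 tested entries from other miRNA genes on chromosome 4, 12 were higher and 7 lower in se-2 (median 0.32), and 3 higher and 8 lower in chr2 (median 0.03). By mean level over the 9 libraries the most abundant were miR319a, miR165b and miR156b-5p, although in WT and chr2 both of the latter exceeded miR319a. miR319a, which targets TCP transcription factors of leaf growth, was at a log2 of 1.3 in se-2 (edgeR adjusted p 1.1e-06) and was not called in chr2 (0.26, adjusted p 0.34). miR165b (log2 -0.31 in se-2 and 0.22 in chr2, edgeR adjusted p 0.19 and 0.47) and miR156b-5p (-0.31 and 0.30, adjusted p 0.14 and 0.24) were not called in either.

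Other miRNA genes with a neighbour within 5000 bases on the same strand gave 30 tested entries. In se-2, 13 were higher and 7 lower (median -0.29), and in chr2, 1 was higher and 10 lower (median -0.46). DCL4-dependent families, miR822, miR839 and miR869, had 3 higher and 0 lower of 5 in se-2 (median 0.69) and 0 higher and 4 lower of 5 in chr2 (median -1.5). Both arms of miR822 are among them. miR869-1 and miR869-2 were at -1.09 and -1.13 in se-2, not called and opposite in sign to the members. Families tied to the miRNA machinery are miR162 and miR838, tied to DCL1 as its regulator and as a product of its intron, and miR168 and miR403, which target AGO1 and AGO2. Of their 11 tested entries, 0 were higher and 8 lower (median -2.04). In chr2 they had 2 higher and 2 lower (median -0.06). The 3 entries not called in se-2 were all miR168, among them the abundant miR168a-5p (log2 -0.26, edgeR adjusted p 0.26). miR403-3p (log2 -1.61, edgeR adjusted p 2.3e-08) and miR162b-3p (log2 -2.39, adjusted p 7.3e-11) fell in se-2 with TMM, while miR863-3p, whose target SE belongs to the same machinery, rose with TMM and was lower with reference scaling.

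Entries were also divided by position, a step chosen with the values known. Of the other tested entries, 20 lay in an intron of another annotated transcript on the same strand, as miR5026 and miR850 do. In se-2, 11 of them were called higher and 4 lower, with a median log2 of 0.99. Of 34 entries that touch an exon, as miR863-5p does, 20 were higher and 9 lower (median 1.22), and of 212 entries outside other transcripts, 79 were higher and 69 lower (median -0.12). In chr2 the intronic entries had 0 higher and 5 lower, with a median of -0.24. Entries that touch an exon had 0 higher and 6 lower (median -0.35), and those outside other transcripts 28 higher and 38 lower (median -0.10). The intronic members miR850 and miR5026 were at -1.74 and -1.89, a description only, since this contrast proposed the group.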

How the data were processed

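For 9 libraries the authors deposited whole-number read counts of mature miRNAs, with no normalization. Gel-purified small RNA of 19 to 24 nt received adapters at both ends and was amplified, per the labels' protocols. Bowtie 1.1.2 and TAIR10 are named per the submitters' processing notes. The counting tool, the miRNA annotation used and the handling of reads with several matches are not stated there. Some entries that share a sequence had nearly equal levels, such as miR166c and miR166d, both at a mean of 66230 CPM in WT. Their reads thus appear to be counted once for each entry, and calls over all entries include such sequences repeatedly. Genotypes were taken from the titles. All 427 names were matched to RefSeq's TAIR10.1 annotation, the source of sequences and positions.

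Of entries with identical counts in all libraries 1 was kept, giving 368 profiles with counts. filterByExpr left 270 tested entries, including all 4 members. edgeR 4.0.16 (R 4.3.3; quasi-likelihood, robust, TMM) fitted all 9 libraries by genotype alone, with Benjamini-Hochberg adjustment over the 270 and a limit of 0.05. The SE is the log2 change divided by the root of the F statistic. Ratios used counts plus 0.5 and exact two-sided permutation tests (scipy 1.17.1). Hairpins were folded with RNAfold 2.7.2. The edgeR fit was tried on simulated counts with known changes in a minority of entries, in chr2 alone. Changes as broad as those in se-2 were not simulated. Within each genotype no library was a copy of another (chi-square per degree of freedom between replicates 2.85 to 95.5).

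The members and lists were chosen with earlier results of these data known. Beyond the members, named entries are the 5 with the nearest profile and abundant entries of each list. Alternatives were other scalings (total counts, reference scaling, size factors of DESeq2 1.42.0), the test of DESeq2, no filter, a single entry per sequence, replicate number as a block and each library left out. Same-numbered libraries did not deviate together (correlations -0.21 to 0.08), so numbers were not taken as pairs.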

Additional observations from a re-analysis of the deposited data

How the results depend on the processing

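Few counts limit miR850 and miR863-5p in chr2 most, and scaling limits all members in se-2. In se-2 against WT the members stayed called higher under DESeq2 size factors, total counts, DESeq2, no filter, a single entry per mature sequence, the replicate block and without each library. They did not under reference scaling, which gave -0.38 for miR5026, 0.44 for miR850, -0.81 for miR863-3p and -1.31 for miR863-5p, nor, except miR850, without miR8175 in the reference (0.083 for miR5026, -0.39 for miR863-3p, -0.90 for miR863-5p). That scaling lowers every se-2 value alike by construction.

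In chr2 against WT every alternative kept the sign. Reference scaling gave -2.51, -2.34, -2.49 and -2.31 for miR5026, miR850, miR863-3p and miR863-5p. In chr2 against se-2 the values, in the same order, were -3.48, -4.11, -3.01 and -2.33 with DESeq2 size factors, -3.48, -4.12, -3.0 and -2.33 with DESeq2, -2.13, -2.78, -1.68 and -1.01 with reference scaling, and -1.94, -2.57, -1.45 and -0.76 without miR8175 in it. With a single entry per mature sequence miR863-3p was at -3.23 and miR863-5p at -2.54.

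Leaving out each library gave ranges of 1.90 to 2.23 (miR5026), 2.67 to 3.12 (miR850), 1.58 to 1.73 (miR863-3p) and 1.1 to 1.21 (miR863-5p) in se-2 against WT. In chr2 against WT they were -1.94 to -1.60, -1.96 to -1.37, -1.90 to -1.66 and -1.83 to -1.29, and in chr2 against se-2 -4.10 to -3.69, -4.84 to -4.24, -3.63 to -3.27 and -3.04 to -2.41. The ratio differences in chr2 against WT, which lay near 0, changed sign with the library left out: miR863-5p to miR863-3p ranged from -0.050 (without chr2 replicate 2) to 0.37, miR850 to miR863 from -0.35 (without chr2 replicate 1; -0.11 without WT replicate 3) to 0.31, and miR5026 to miR863 from -0.29 to 0.14 (without chr2 replicate 2). In se-2 against WT the ratios ranged from -0.53 to -0.43, 1.18 to 1.58 and 0.44 to 0.65 and kept their sign.

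With replicate number as a block, which the libraries do not bear out as a pairing, the log2 changes in se-2 were 2.11, 2.91, 1.67 and 1.16, and the ratio tests gave a sign-flip permutation p of 0.25 at best, the smallest that 3 pairs allow. Over all entries the block moved the calls in chr2 against WT from 28 higher and 53 lower to 26 and 47. Counts over all entries moved by over 1.5 times under reference scaling without miR8175 in se-2 (27 higher and 182 lower, from 114 and 82), and in chr2 against se-2 the 128 lower became 35 with reference scaling and 28 without miR8175 in it. In chr2 against WT the 28 higher became 46 with DESeq2 size factors, and the 53 lower became 35 with total counts, 29 with DESeq2, 32 with a single entry per sequence, and, with a library left out, 30 (WT replicate 1), 33 (chr2 replicate 1) or 29 (chr2 replicate 3).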
